A study of Mus musculus with 2 samples.

Results

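The 36 genes described here encode the dynein motor, its cofactor dynactin, the proteins that regulate both and the adaptors that tie them to cargo. They were taken from a list of gene symbols, and all 36 were found among the 32287 features of the deposited count matrices. Transcripts were counted per barcode with the 10x 3' kit version 3.1, and the liver donors were C57BL/6J mice of wild-type genotype. At an age of 4 weeks they were infected with AAV-scramble (the control vector) or AAV-shBicd2 (a short hairpin against Bicd2), both carried by adeno-associated virus. After 3 more weeks concanavalin A was given into a vein at 15 mg/kg. Concanavalin A, a bean lectin, stimulates T cells and brings on an acute immune hepatitis, and both groups received it. Livers were taken 6 hours afterwards. Each group is 1 library. The labels do not say how many animals went into a library, which promoter drove the hairpin or which vector carried the EGFP sequence that both libraries contain. With 1 library per group no difference between groups has a replicate check and none was tested. Intervals in parentheses are 95% intervals and cover counting error only.

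Cytoplasmic dynein walks along microtubules toward their minus ends and carries vesicles, organelles, RNA and nuclei. It moves processively when dynactin and a coiled-coil activating adaptor join it, and the adaptor selects the cargo. BICD2 is such an adaptor. It binds the Golgi GTPase RAB6 on vesicles and the nucleoporin RANBP2 at the nuclear envelope. Hepatocytes are polarised cells in which dynein moves endosomes, lipid droplets and vesicles bound for the bile canaliculus.

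The library labelled scramble held 2805 barcodes with 5086306 UMIs (unique molecular identifiers, each marking a captured transcript), and the library labelled shBicd2 held 3038 barcodes with 5624055 UMIs. After filtering, 2728 and 2940 barcodes remained, with medians of 1502 and 1500 UMIs. Barcodes were split by UMIs of Ptprc (CD45, on all leukocytes), Ptprb (a phosphatase of endothelial cells) and Dcn (decorin, of stellate cells and fibroblasts). Hepatocyte barcodes are those with no UMI of these genes and fewer than 3 UMIs over lists of markers of other liver cell types. They numbered 2383 (87.4%) and 2279 (77.5%). Of these, 99.7% and 100% held at least 1 UMI of 14 hepatocyte markers such as Alb, and all 14 markers were detected. The share was 94.7% and 100% in Ptprc-positive barcodes, so it does not set hepatocyte barcodes apart. Ptprc-positive barcodes numbered 152 and 110, Dcn-positive ones 33 and 57, and Ptprb-positive ones 2 and 3, which is too few for any statement on endothelial cells from that gene. Immune markers summed to 1442 and 1728 CPM (UMIs of the genes per 1e+06 UMIs of the class) in Ptprc-positive barcodes, where 21 and 20 of the 25 listed genes had a UMI, and to 23.9 and 45.6 CPM in hepatocyte barcodes. Ptprc is on that list and hepatocyte barcodes were chosen by low counts over it, so part of this contrast is set by the selection. Hepatocyte RNA was present in every class. The 14 hepatocyte markers summed to 19442 and 23362 CPM in hepatocyte barcodes and to 15820 and 20573 CPM in Ptprc-positive barcodes, so a level of any gene in Ptprc- or Dcn-positive barcodes includes an unknown part from hepatocytes. The libraries shared 3 barcode sequences.

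The hepatocyte barcodes of the libraries also differed in ways other than the hairpin label. EGFP was detected in 6.34% (5.39% to 7.39%) and 27.7% (25.9% to 29.6%) of them, and the median mitochondrial share was 0.178% and 0.323%. The nuclear RNA Malat1 stood at 35769 and 26491 CPM, and the nuclear RNA Neat1 at 67289 and 47987 CPM. Neutrophil markers summed to 41.4 and 118 CPM. The part of these differences in the values below was not tested, apart from the comparisons by EGFP and by mitochondrial share.

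The promoters of the BICD pair are shown first because Bicd2 is the gene named by the hairpin and Bicd1, its close relative, is the gene whose level differed most between hepatocyte and Dcn-positive barcodes. Each stretch runs from 250 bases before the RefSeq transcript start to 50 after it, 5′ to 3′ on the plus strand of GRCm38.p6, with matches to the searched motifs in capitals. Bicd1 is at chr6:149408734-149409033 and Bicd2 at chr13:49341299-49341598.

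Bicd1: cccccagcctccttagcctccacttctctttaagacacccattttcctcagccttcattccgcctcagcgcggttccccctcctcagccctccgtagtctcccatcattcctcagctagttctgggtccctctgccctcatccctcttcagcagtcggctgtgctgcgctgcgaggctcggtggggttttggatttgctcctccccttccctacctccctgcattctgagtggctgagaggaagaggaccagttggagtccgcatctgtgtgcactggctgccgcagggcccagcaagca

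Bicd2: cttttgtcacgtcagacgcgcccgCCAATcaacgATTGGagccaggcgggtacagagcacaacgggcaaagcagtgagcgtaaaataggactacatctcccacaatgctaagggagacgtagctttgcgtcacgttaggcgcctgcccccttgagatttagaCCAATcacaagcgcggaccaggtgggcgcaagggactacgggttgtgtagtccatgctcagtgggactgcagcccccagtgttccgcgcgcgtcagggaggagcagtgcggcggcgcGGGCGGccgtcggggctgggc

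The CCAAT box (CCAAT), the TATA box (TATAAA), the GC box (GGGCGG), the cyclic AMP response element (TGACGTCA) and an ETS-type motif (CCGGAAG) were searched on both strands, and no motif contains another. Bicd2 holds 3 matches to the CCAAT box, read as CCAAT or on the other strand, and 1 to the GC box, and Bicd1 holds no match to any of them. CCAAT is found in 37.4% and GGGCGG in 35.7% of all 32851 mouse promoters of this length. Promoters were at hand for 29 of the 36 genes (37 promoters), of which 35.1% hold CCAAT and 62.2% hold GGGCGG. The 37 promoters had a median of 23 CpG dinucleotides against 7 over all promoters. Bicd1 has 10 and Bicd2 has 27. A match describes letters in this window and says nothing of binding.

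Most of the machinery was detected in hepatocyte barcodes. In each library 34 of the 36 genes had at least 1 UMI there and 31 had 20 or more. Bicdl2 (a BICD-like adaptor) and Rab6b (a RAB6 isoform best known from brain) had 0 UMIs in both, where a count of 0 allows up to 0.697 and 0.736 CPM. Bicdl1, Spdl1 (the kinetochore adaptor Spindly) and Nin (ninein, of the centrosome) were detected only sparsely, with 2, 3 and 6 UMIs in the library labelled scramble and 5, 2 and 12 in the library labelled shBicd2. Summed over all members, hepatocyte barcodes held 9691 and 9304 UMIs, or 2253 and 2282 CPM, and the ratio of the sums was 1.01 (0.985 to 1.04). Ranbp2 alone supplied 20.2% and 17.9% of these UMIs.

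**Figure D1:**
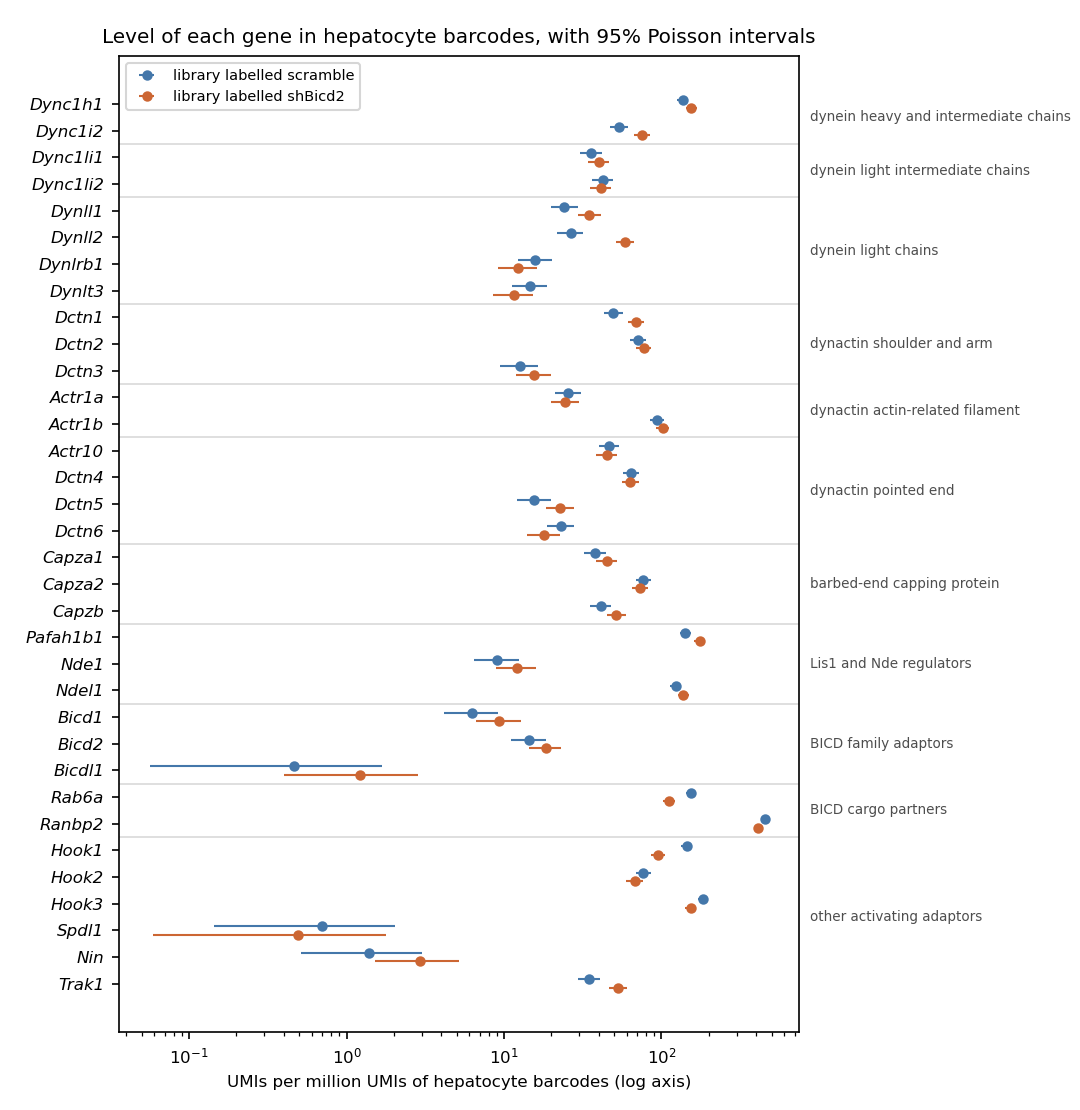
Level of each detected gene in hepatocyte barcodes, as CPM on a log axis, grouped by role. Points are the libraries labelled scramble (blue) and shBicd2 (orange), and bars are 95% Poisson intervals; Ranbp2 is the highest in both libraries, at 456 and 409 CPM, while Bicdl1, Spdl1 and Nin lie at or under 2.94 CPM.

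Levels of different genes were compared per kb of merged exons, although a 3' kit tags each molecule once whatever its length. On that scale the leading genes were Rab6a (41.3 CPM per kb), Ranbp2 (38.9) and Ndel1 (37.7) in the library labelled scramble. In the library labelled shBicd2 they were Ndel1 (42.4), Ranbp2 (34.9) and Rab6a (30.0). The BICD pair came near the end of this order. Bicd2 was at 2.28 and 2.91 CPM per kb, place 30 of 36 in both libraries, and Bicd1 followed at 0.229 and 0.341, place 31. By CPM without regard to length, Bicd2 took place 28 and 25, Rab6a 3 and 6, and Ranbp2 1 in both libraries, so the places depend on the scale.

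A ratio between the libraries was counted as past the fold when it was 1.5 or more, or the inverse, in a gene with at least 20 UMIs over both. By this rule 2 of 31 members were higher in hepatocyte barcodes of the library labelled shBicd2 (Dynll2 and Trak1) and 1 was lower (Hook1). Over all 10960 genes with enough UMIs, 24.6% were higher and 10.5% lower. The members' median log2 ratio was 0.16 and that of all genes 0.15. The counts of members were thus below the background in both directions. The background was not matched to the members in number of UMIs, so the part of depth in this gap was not tested. Relative to the median gene, whose ratio was 1.11, 1 member was higher (Dynll2) and 2 were lower (Hook1 and Rab6a). The share of all genes past the fold on that scale was not counted.

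**Figure D2:**
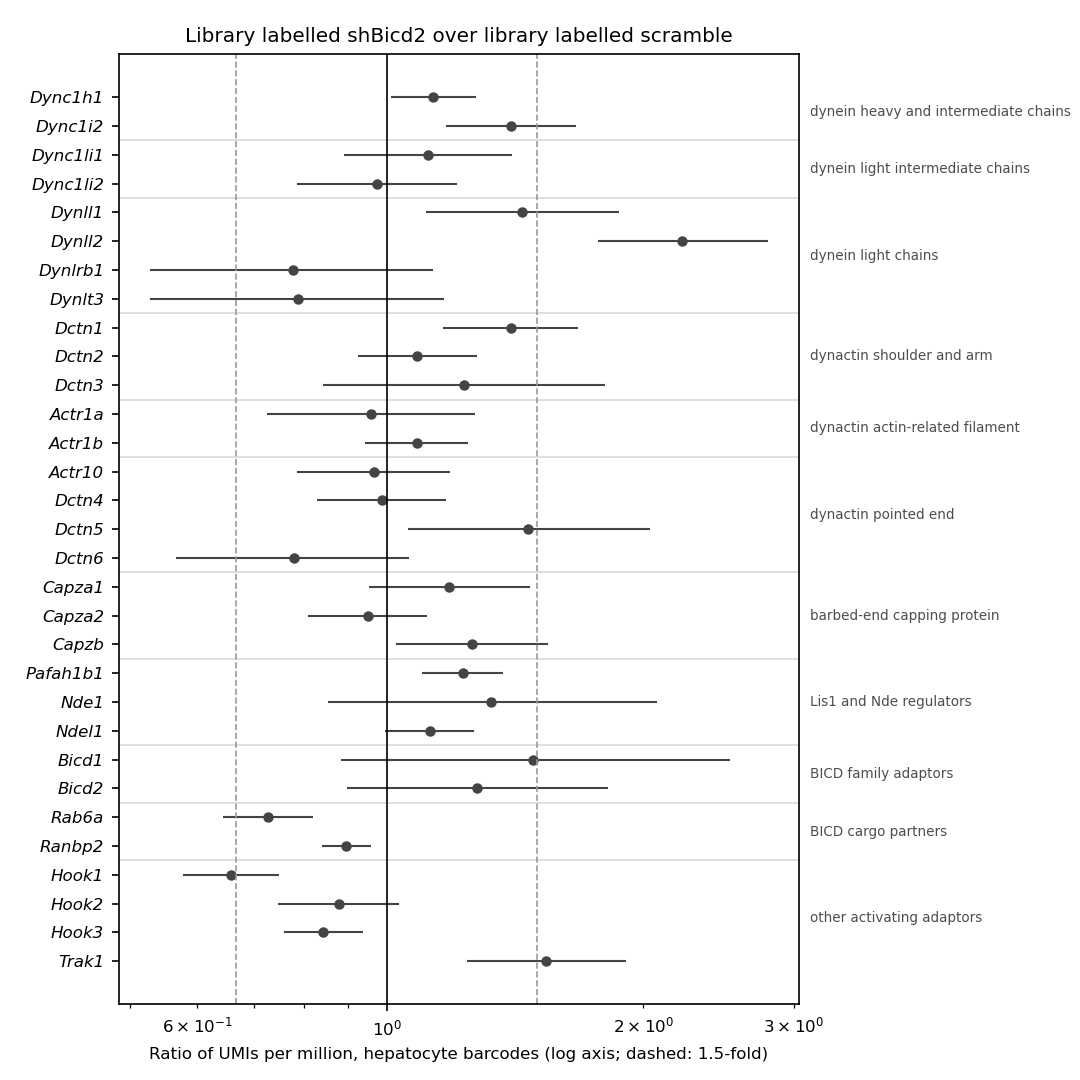
Ratio of CPM in hepatocyte barcodes, library labelled shBicd2 over library labelled scramble, for the 31 genes with at least 20 UMIs, on a log axis. Points are ratios and bars 95% counting intervals, and dashed lines mark 1.5-fold; Dynll2 lies farthest to the right at 2.22 and Hook1 farthest to the left at 0.657.

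Dynein itself comes first by role. Dync1h1, the heavy chain that carries the motor domain, had 587 and 631 UMIs, or 136 and 155 CPM, and its ratio of 1.13 (1.01 to 1.27) was close to that of the median gene. Dync1i2, the intermediate chain that docks dynein to dynactin, had 53.7 and 75.1 CPM. The sum of the heavy and intermediate chain gave a ratio of 1.21 (1.10 to 1.33). The light intermediate chains, which adaptors grip, showed no such difference. Dync1li2 had 182 and 168 UMIs (42.3 and 41.2 CPM, ratio 0.974, 0.785 to 1.21) and Dync1li1 had 35.8 and 40.0 CPM.

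The light chains lay on both sides of the median gene. Dynll2, an LC8 light chain that also binds many proteins other than dynein, had 114 UMIs in the library labelled scramble and 240 in the library labelled shBicd2, or 26.5 and 58.9 CPM. This is a ratio of 2.22 (1.77 to 2.80), the highest among the 31 genes. Dynll2 was detected in 4.36% and 8.60% of hepatocyte barcodes. After each barcode was cut down at random to 1000 UMIs, with 612 and 616 barcodes below that depth dropped, the shares were 2.37% (1.71% to 3.19%) and 5.11% (4.10% to 6.28%). Its twin Dynll1, the other LC8 gene, had 24.2 and 34.8 CPM (ratio 1.44, 1.11 to 1.87). Dynlrb1 and Dynlt3, of the other light chain families, had ratios of 0.776 (0.528 to 1.13) and 0.787 (0.528 to 1.17). The Dynll2 difference was smaller without EGFP-positive barcodes, where its ratio was 1.41 (1.05 to 1.89).

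Dynactin genes had ratios on both sides of 1. The shoulder and arm genes summed to 1.22 (1.09 to 1.36), or 1.10 relative to the median gene. Among them, Dctn2 (dynamitin) had 306 and 315 UMIs, or 71.1 and 77.3 CPM, a ratio of 1.09 (0.925 to 1.28). Dctn1 encodes p150Glued, the subunit that contacts dynein and microtubules, and had 49.5 and 69.2 CPM (ratio 1.40, 1.17 to 1.68). Dctn3 had 12.6 and 15.5 CPM. For the actin-related filament at the core of dynactin, Actr1b had 404 and 415 UMIs (93.9 and 102 CPM, ratio 1.08, 0.943 to 1.25) and Actr1a had 25.6 and 24.5 CPM. The pointed-end complex, which caps the filament and helps some adaptors bind, summed to a ratio of 0.998 (0.892 to 1.12). Its most abundant gene, Dctn4, had 276 and 258 UMIs (64.2 and 63.3 CPM, ratio 0.987, 0.829 to 1.17). Within that complex Dctn5 (ratio 1.46) and Dctn6 (ratio 0.778) lay on opposite sides of Actr10 (ratio 0.966). The capping protein of the barbed end is shared with actin filaments in general. Capza2 led it with 330 and 297 UMIs (76.7 and 72.9 CPM, ratio 0.95, 0.809 to 1.11), while Capza1 and Capzb had ratios of 1.18 and 1.26. The sums of the light intermediate chains (1.04), the filament (1.06) and the capping protein (1.09) were above 1 and, relative to the median gene, below it, at 0.939, 0.955 and 0.983.

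The LIS1 and NDE regulators activate dynein before it binds dynactin. Pafah1b1, which encodes LIS1, had 611 and 711 UMIs, or 142 and 174 CPM, a ratio of 1.23 (1.10 to 1.37). Ndel1 had 123 and 138 CPM and Nde1 had 9.06 and 12 CPM. The sum of the 3 genes gave 1.18 (1.09 to 1.28), which is 1.07 relative to the median gene.

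Of the cargo partners and other activating adaptors, Hook1 was past the fold lower and Trak1 past it higher, and the others with enough UMIs lay within it. Ranbp2, a large nucleoporin of the cytoplasmic face of the nuclear pore, had 1961 and 1667 UMIs (456 and 409 CPM, ratio 0.897, 0.840 to 0.958). Rab6a, the Golgi GTPase that recruits BICD2 to vesicles, had 663 and 456 UMIs (154 and 112 CPM), a ratio of 0.726 (0.643 to 0.819). Both values lie below that of the median gene. Hook1, an endosomal adaptor, had 623 UMIs in the library labelled scramble and 388 in the library labelled shBicd2. These are 145 and 95.2 CPM, a ratio of 0.657 (0.578 to 0.747), the lowest among the 31 genes. Hook1 was detected in 20.2% and 13.9% of hepatocyte barcodes, and in 14.6% (13.0% to 16.3%) and 8.54% (7.24% to 9.99%) at 1000 UMIs each. Its paralogs lay on the same side: Hook3 had 785 and 627 UMIs (182 and 154 CPM, ratio 0.843, 0.758 to 0.937) and Hook2 had 76.7 and 67.5 CPM (ratio 0.879, 0.747 to 1.04). Trak1, which links dynein and kinesin to mitochondria, lay on the other side, with 149 and 217 UMIs (34.6 and 53.2 CPM, ratio 1.54, 1.24 to 1.91). Its share of hepatocyte barcodes was 5.79% and 8.91%, or 2.94% and 5.83% at 1000 UMIs each. Summed by role, the cargo partners gave 0.854 (0.806 to 0.904) and the other activating adaptors 0.847 (0.791 to 0.906).

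Bicd2 itself, on chromosome 13 (49341585 to 49387026, plus strand, GRCm38), was not lower in the library that carries its hairpin by label. Hepatocyte barcodes held 62 Bicd2 UMIs in the library labelled scramble and 75 in the library labelled shBicd2, or 14.4 (11 to 18.5) and 18.4 (14.5 to 23.1) CPM. The ratio was 1.28 (0.90 to 1.82), or 1.15 relative to the median gene. A Bicd2 UMI was seen in 2.43% and 3.07% of hepatocyte barcodes, and in 1.47% (0.961% to 2.14%) and 2.10% (1.47% to 2.91%) at 1000 UMIs each. Over all kept barcodes Bicd2 had 77 and 106 UMIs (15.7 and 19.5 CPM, ratio 1.24, 0.919 to 1.69). In all kept barcodes 4 of 32 members were past the fold higher (Dynll1, Dynll2, Dctn5 and Nin) and 1 lower (Hook1), against 24.1% and 10.8% of all genes. Every direction given here therefore compares the libraries by label. BICD2 protein was not measured, and the share of nuclear RNA in the Bicd2 counts was not tested.

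Bicd1, a paralog that also joins dynein to RAB6 vesicles, lies on chromosome 6 (149408886 to 149563329, plus strand, GRCm38) and had 27 and 38 UMIs in hepatocyte barcodes, or 6.28 (4.14 to 9.13) and 9.32 (6.60 to 12.8) CPM. The ratio was 1.49 (0.883 to 2.53). Bicd1 made up 30.3% (21% to 41.0%) and 33.6% (25% to 43.1%) of the UMIs of the pair there. Because the merged exons of Bicd1 span 27.4 kb and those of Bicd2 6.32 kb, the share was 9.13% and 10.5% when UMIs were divided by exon length. UMIs of both genes met in 0 and 1 hepatocyte barcodes. Over all kept barcodes Bicd1 was 44.2% (35.8% to 52.9%) and 40.4% (33.2% to 48.0%) of the pair.

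The level of Bicd1 was far higher in Dcn-positive barcodes, although these held only 9 of its 61 UMIs over all kept barcodes of the library labelled scramble and 17 of 72 in the library labelled shBicd2. The 33 Dcn-positive barcodes labelled scramble held 9 Bicd1 UMIs, or 278 CPM (127 to 528), which is 44.3 times the hepatocyte level (18.4 to 97.2). The 57 labelled shBicd2 held 17 Bicd1 UMIs, or 186 CPM (108 to 298), which is 19.9 times (10.6 to 36.2). These UMIs came from 3 and 8 barcodes, and the richest barcode held 6 and 4 of them. Without that barcode the ratios were 15.2 (2.95 to 49.4) and 15.6 (7.62 to 29.9), an alternative chosen after seeing the data. Barcodes with a Bicd1 UMI made up 9.09% and 14.0% of Dcn-positive barcodes against 0.881% and 1.54% of hepatocyte barcodes, although Dcn-positive barcodes were shallower, with medians of 751 and 1053 UMIs against 1523 and 1513. At 1000 UMIs each, 0 of 9 and 0 of 30 Dcn-positive barcodes had a Bicd1 UMI, which allows shares of up to 33.6% and 11.6% (exact upper limits), against 0.452% and 0.842% of hepatocyte barcodes, so the difference in share was not detectable at that depth. Bicd2 had 2 UMIs in Dcn-positive barcodes of each library, so that Bicd1 was 81.8% (48.2% to 97.7%) and 89.5% (66.9% to 98.7%) of the pair.

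The stellate and fibroblast marker list takes barcodes with at least 3 UMIs of its 14 genes and more than of the immune or endothelial list. Dcn is among these genes and the overlap with Dcn-positive barcodes was not counted, so the list is not an independent check. It found 22 and 48 barcodes. Bicd1 had 10 and 17 UMIs there, or 491 (236 to 903) and 224 (131 to 359) CPM, and Bicd2 had 2 and 0. The richest barcode held 6 and 4 of the Bicd1 UMIs, the same numbers as in Dcn-positive barcodes. Stellate markers summed to 28.8 and 30.4 CPM in hepatocyte barcodes and to 2845 and 2077 CPM in Dcn-positive ones. Hepatocyte barcodes were chosen by low counts over this list, which holds Dcn, so part of this contrast is set by the selection. Hepatocyte markers in Dcn-positive barcodes stood at 11288 and 26380 CPM. The part of stromal RNA in the Bicd1 count of hepatocyte barcodes was not tested.

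**Figure D3:**
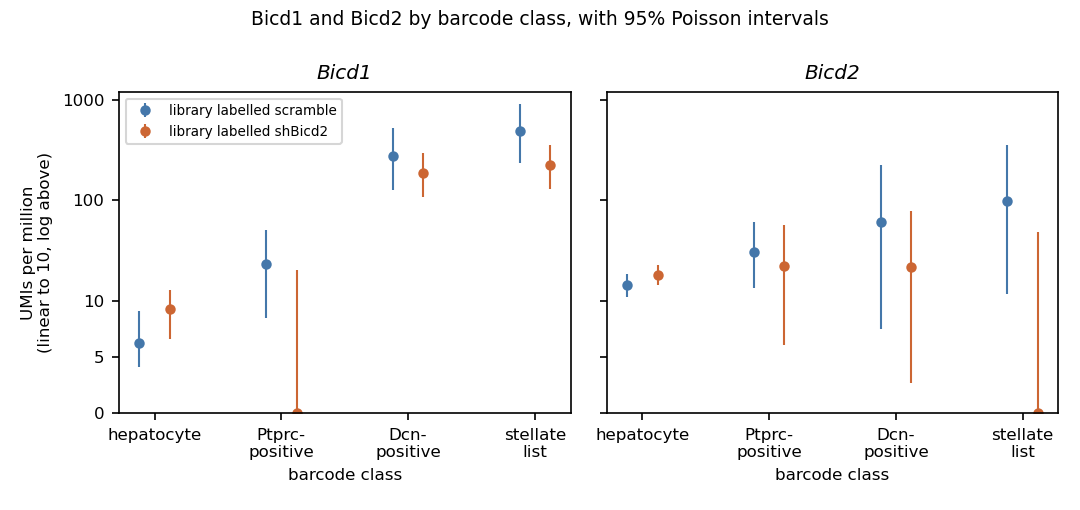
Bicd1 (left) and Bicd2 (right) by barcode class, in CPM on an axis that is linear to 10 and logarithmic above, with 95% Poisson intervals. Bicd1 lies at 6.28 and 9.32 CPM in hepatocyte barcodes and at 278 and 186 CPM in Dcn-positive ones, whereas the Bicd2 intervals of all classes overlap within each library.

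Of the 31 members with enough UMIs, Bicd1 had the highest ratio of Dcn-positive over hepatocyte barcodes in both libraries. In Dcn-positive barcodes 14 of 31 members were past 1.5-fold higher and 9 lower than in hepatocyte barcodes of the library labelled scramble (background 32.2% and 47.8%), and 5 of the 31 had 0 UMIs. The counts were 7 and 8 in the library labelled shBicd2 (background 25.9% and 32.3%). The summed members stood at 1.83 (1.53 to 2.17) and 1.0 (0.869 to 1.15) times the hepatocyte level. Pafah1b1, for LIS1, lay on opposite sides in the libraries. Labelled scramble, it had 16 UMIs in Dcn-positive barcodes (495 CPM, ratio 3.48, 1.98 to 5.70). Labelled shBicd2, it had 10 (109 CPM, ratio 0.627, 0.299 to 1.16).

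Ptprc-positive barcodes cannot be read as leukocyte RNA alone, given the level of hepatocyte markers in them. In Ptprc-positive barcodes 9 of 31 members were past the fold higher and 5 lower in the library labelled scramble (background 23.2% and 16.6%), and 4 higher and 10 lower in the library labelled shBicd2 (background 21.1% and 23.7%). Their sums stood at 1.14 (1.05 to 1.23) and 0.894 (0.803 to 0.992) times the hepatocyte level. Barcodes chosen by the immune list were set against a narrower class, the 1499 and 1004 hepatocyte barcodes with no UMI of another list. They gave sums of 1.36 (1.20 to 1.54) and 1.13 (0.986 to 1.29) times the level of that class, with hepatocyte markers at 11202 and 19402 CPM. Erythroid markers stood at 202 and 8071 CPM in Ptprc-positive barcodes, and their part in the difference between the sums was not tested. Nin had 5 and 6 UMIs, which is 13.9 (3.36 to 54.7) and 11.4 (3.50 to 32.7) times its hepatocyte level, on the same side in both libraries although too few UMIs for the fold rule. Dynll1 had 5 and 14 UMIs, or 0.802 (0.255 to 1.93) and 2.24 (1.19 to 3.88) times. Among barcodes chosen by the immune list, Dynll1 was higher in the library labelled shBicd2, with 12 UMIs, and not in the other library, with 1 UMI. The 12 UMIs are 5.30 (2.53 to 10.3) times the level of hepatocyte barcodes with no UMI of another list. Ptprc is on the immune list and the overlap with Ptprc-positive barcodes was not counted, so the list is not an independent check. Neutrophil markers in the Ptprc-positive class summed to 163 and 2648 CPM, and the part of this difference in the Dynll1 values was not tested. Capza2 had 28 and 26 UMIs, or 1.42 (0.926 to 2.08) and 1.99 (1.28 to 2.97) times. Bicd2 had 8 and 4 UMIs, or 31.0 and 22.3 CPM. By the immune list it had 6 UMIs labelled scramble, or 70.8 CPM (26.0 to 154), which is 4.65 (1.61 to 11.1) times the level of hepatocyte barcodes with no UMI of another list. Labelled shBicd2, it had 2 UMIs there (22.3 CPM, 2.70 to 80.6). Bicd1 had 6 and 0, where 0 allows up to 16.7 CPM and the hepatocyte level was 9.32 CPM, so no difference was detectable at that depth.

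Endothelial barcodes could be looked at only through their marker list, which found 11 and 22. Endothelial markers summed to 5018 and 1798 CPM in them, hepatocyte markers to 13027 and 21599 CPM and erythroid markers to 482 and 24591 CPM. Levels in these barcodes thus cannot be read as endothelial RNA alone. Members summed there to 42 and 152 UMIs, or 1.79 (1.29 to 2.42) and 1.16 (0.976 to 1.36) times the level of barcodes with no UMI of any other list. Bicd2 was at 0 in both, which at these depths allows up to 289 and 53.4 CPM.

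EGFP-positive and EGFP-free hepatocyte barcodes were then compared within each library. There were 151 and 2232 in the library labelled scramble and 631 and 1648 in the library labelled shBicd2. EGFP-positive barcodes were deeper (medians of 2167 against 1488 and 1903 against 1366 UMIs) and had less Malat1 (30913 against 36251 and 21152 against 29332 CPM). Neat1, the other nuclear RNA examined, lay on the other side (68999 against 67120 and 54013 against 44781 CPM). Hepatocyte markers were lower in EGFP-positive barcodes (16813 against 19703 and 18293 against 26058 CPM). They stood at 14479 CPM in barcodes labelled shBicd2 with 5 or more EGFP UMIs. The part of the marker, Malat1 and Neat1 differences in the values below was not tested. Most members were lower in EGFP-positive barcodes (27 and 26 of 31 had a ratio under 1), and so were most genes. A log2 ratio above 0 was found in 4 and 5 members and in 29.1% and 24.4% of all genes with enough UMIs. Past the fold, 2 members were higher and 17 lower in the library labelled scramble (background 9.88% and 47.0%), and 1 was higher and 16 lower in the library labelled shBicd2 (background 9.07% and 42.6%). The members' median log2 ratios were -0.55 and -0.60, against -0.43 and -0.45 for all genes.

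**Figure D4:**
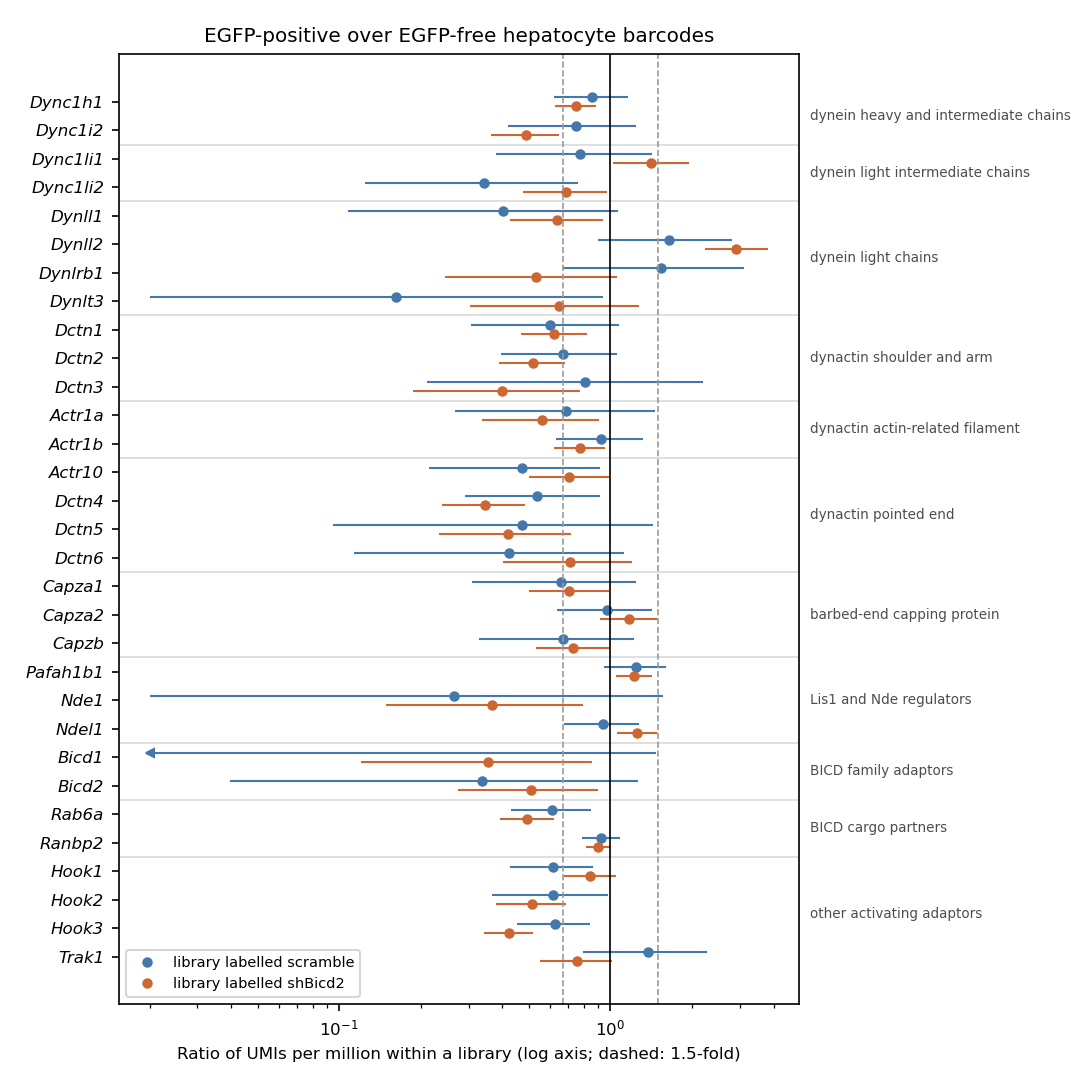
Ratio of CPM in EGFP-positive over EGFP-free hepatocyte barcodes, within the libraries labelled scramble (blue) and shBicd2 (orange), on a log axis with 95% counting intervals and dashed lines at 1.5-fold. Most points lie left of 1, Dynll2 lies right of it in both libraries, at 1.64 and 2.92, intervals that pass the left edge are cut there, and the arrow marks Bicd1 with 0 UMIs in EGFP-positive barcodes of the library labelled scramble.

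Bicd2 lay below its EGFP-free level in both libraries, although in the library labelled scramble the interval reaches past 1. It had 16 UMIs against 59 in the library labelled shBicd2, or 11.3 and 22.2 CPM, a ratio of 0.510 (0.274 to 0.898). In the library labelled scramble it had 2 against 60, or 5.14 and 15.3 CPM, a ratio of 0.335 (0.0397 to 1.27). Relative to the median gene these ratios were 0.697 and 0.451. The median gene itself had ratios of 0.732 (labelled shBicd2) and 0.744 (labelled scramble). Both lie inside the Bicd2 intervals, so no difference of Bicd2 from the median gene was detectable. At 1000 UMIs each, barcodes of the library labelled shBicd2 with a Bicd2 UMI were 2.61% (1.75% to 3.72%) of EGFP-free and 1.09% (0.401% to 2.36%) of EGFP-positive ones. By EGFP UMI in the library labelled shBicd2, Bicd2 stood at 22.2 CPM (16.9 to 28.6) with none, 6.84 (1.86 to 17.5) with 1, 5.94 (0.719 to 21.4) with 2 to 4 and 20.3 (9.71 to 37.2) with 5 or more. It thus showed no steady decrease with EGFP, and the intervals with none and with 5 or more overlapped. Bicd1 had 6 UMIs against 32 (ratio 0.352, 0.120 to 0.855), an interval that also holds the ratio of the median gene. In the library labelled scramble it had 0 against 27, where 0 allows up to 7.71 CPM and the EGFP-free level was 6.90 CPM.

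Dynll2 was the member past the fold higher in both libraries. In the library labelled shBicd2 it had 146 UMIs in EGFP-positive and 94 in EGFP-free barcodes, or 103 and 35.3 CPM, a ratio of 2.92 (2.24 to 3.83). Its level was higher in each EGFP class than in the one before, from 35.3 CPM (28.5 to 43.2) with none to 53.0 (36 to 75.2), 98 (67.4 to 138) and 166 (132 to 206). In the library labelled scramble it had 16 against 98 UMIs, a ratio of 1.64 (0.904 to 2.80), an interval that includes 1. The EGFP-positive barcodes were deeper, and at 1000 UMIs each Dynll2 was seen in 2.78% (1.90% to 3.93%) of EGFP-free and 9.82% (7.46% to 12.6%) of EGFP-positive barcodes labelled shBicd2. Set between the libraries, Dynll2 in EGFP-positive barcodes had 41.1 and 103 CPM, a ratio of 2.51 (1.49 to 4.50), and 7 of 26 members were higher and 1 lower there (background 35.0% and 10.8%).

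Members of the adaptor and dynactin groups lay on the other side in the library labelled shBicd2. Hook3 had 115 UMIs in EGFP-positive and 512 in EGFP-free barcodes (81.2 and 192 CPM, ratio 0.422, 0.342 to 0.518) and went from 192 CPM with no EGFP UMI to 133, 44.5 and 44.6 in the EGFP classes. Rab6a went from 136 to 108, 53.4 and 28.4 CPM. Dctn4 had the lowest ratio of the 31 members in that library, 0.345 (0.240 to 0.485), and the pointed-end genes summed to 0.497 (0.406 to 0.606). In the library labelled scramble the pointed-end sum was 0.493 (0.330 to 0.712), Hook3 had a ratio of 0.626 (0.455 to 0.844) and Rab6a 0.612 (0.429 to 0.849). Relative to the median gene, Hook3 and Rab6a stood at 0.842 and 0.823 there. By EGFP class in that library Hook3 went from 189 to 120, 120 and 106 CPM. Rab6a showed no steady decrease, at 160, 77.0, 82.2 and 233 CPM (116 to 416, on 11 UMIs). The LIS1 and NDE genes differed among themselves. Their sums stood at 1.07 (0.872 to 1.30) and 1.19 (1.07 to 1.33), carried by Pafah1b1 (1.24 and 1.22) and Ndel1 (0.938 and 1.26). Nde1, the scarcest of them, was past the fold lower in both libraries, with 1 UMI against 38 (ratio 0.265, 0.0065 to 1.57) and 8 against 41 (ratio 0.367, 0.149 to 0.793). Ndel1 stood at 127 CPM in EGFP-free barcodes of the library labelled shBicd2 and at 186 CPM in those with 5 or more EGFP UMIs, and Dync1li1 at 34.9 and 56.7 CPM. Ranbp2 stood at 423 CPM in EGFP-free and 382 CPM in EGFP-positive barcodes.

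**Figure D5:**
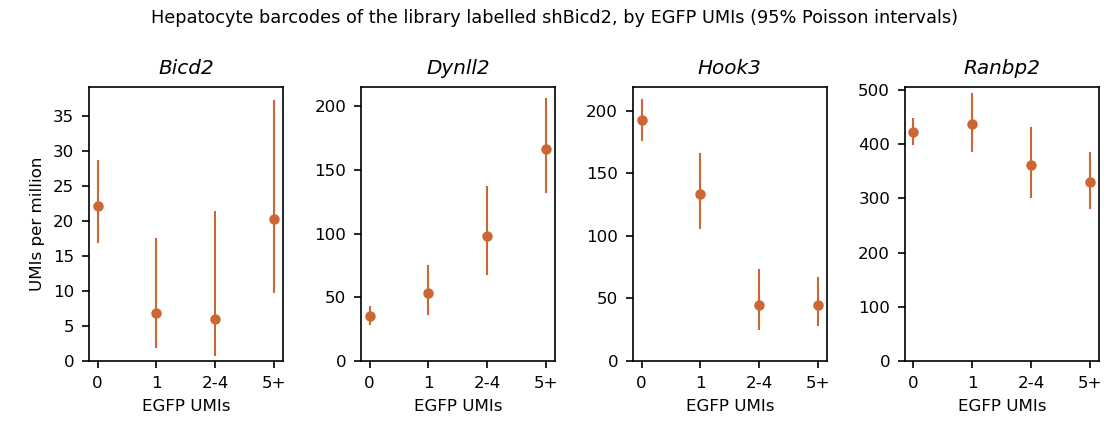
Bicd2, Dynll2, Hook3 and Ranbp2 in hepatocyte barcodes of the library labelled shBicd2 by number of EGFP UMIs (0, 1, 2 to 4, 5 or more), in CPM on linear axes from 0 with 95% Poisson intervals. Dynll2 goes from 35.3 to 166 CPM and Hook3 from 192 to 44.6 CPM, while the intervals of Bicd2 at 0 and at 5 or more overlap.

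Without EGFP-positive barcodes the comparison of the libraries looked different. Among EGFP-free hepatocyte barcodes 8 of 31 members were past 1.5-fold higher in the library labelled shBicd2 and 0 lower (background 27.3% and 9.54%). These were Dync1i2 (1.66), Dynll1 (1.56), Dctn1 (1.55), Dctn3 (1.53), Dctn5 (1.75), Nde1 (1.59), Bicd1 (1.74) and Trak1 (1.74). Hook1 stood at a ratio of 0.671, just inside the fold, and Rab6a at 0.849. Bicd2 had 60 and 59 UMIs there, with a ratio of 1.45 (0.992 to 2.11). The count higher is near the background share there, whereas over all hepatocyte barcodes it was below it.

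Mitochondrial share sorted members differently. Barcodes with 2% or more mitochondrial UMIs (240 and 198) were set against those under 0.5% (1820 and 1502). In the library labelled scramble 6 members were past the fold higher and 9 lower of 31 (background 14.8% and 31.2%), and in the library labelled shBicd2 2 and 9 (background 15.4% and 31.5%). Dctn3 and Dynlrb1 were past the fold higher in both libraries, on 5 to 8 UMIs each: Dctn3 had ratios of 2.57 (1.04 to 5.60) and 1.76 (0.616 to 4.14), and Dynlrb1 1.55 (0.597 to 3.42) and 2.25 (0.683 to 5.87). Rab6a was lower in the library labelled scramble, with 61.5 against 169 CPM (ratio 0.365, 0.215 to 0.581), and not in the library labelled shBicd2 (ratio 1.14, 0.756 to 1.65). Within barcodes under 0.5% mitochondrial, Bicd2 stood at 14.8 and 19.2 CPM and Dynll2 at 25.2 and 63.7 CPM in the respective libraries.

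The wider transport machinery was taken from lists of genes outside the 36. Of other dynein subunits, 3 of 8 had enough UMIs and 0 were higher and 1 lower, with Dync2h1, Dynlt1a and Dync2li1 at ratios of 1.02, 0.621 and 0.974. Of other adaptors and cargo links, 5 of 18 were higher and 1 lower (median log2 -0.02). Rab7, the late endosome GTPase, had a ratio of 0.953, Spag9 (JIP4, a lysosome adaptor) 1.57 and Mapk8ip3 (JIP3) 1.06. Kinesins, which run mostly to the plus end, had 8 of 13 higher and 1 lower, with a median log2 ratio of 0.61 against 0.15 for all genes. Their most abundant members were Kif5b (0.733), Kif1b (2.63) and Kif21a (0.862), so that the most abundant kinesin lay below 1 while the list's median lay above. Tubulins had 5 of 8 higher and 0 lower, with a median of 0.80. Tubb4b had a ratio of 1.69, Tuba1c 1.91 and Tubb2a 6.24 (4.57 to 8.70), from 47 to 278 UMIs. Plus-end and lattice proteins had 3 of 13 higher and 2 lower, with Dst at 0.904, Macf1 at 0.895 and Clasp1 at 1.27. Nuclear pore proteins had 3 of 19 higher and 3 lower, with Tpr at 1.19, Nup98 at 0.627 and Rangap1 at 0.860. The 24.6% and 10.5% of all genes given above are the background of these counts. Among the lists, tubulins and kinesins had the highest medians, and the dynein and dynactin members stayed near the median gene.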

How the data were processed

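Raw UMI counts per gene and barcode were deposited for 2 libraries, and per the file headers they came from Cell Ranger 6.1.2. The submitters' processing notes name Cell Ranger 6.0.1, Seurat 4.0.3 and mm10. From these counts, Scrublet (in scanpy 1.11.5, with its default doublet rate) gave each barcode a doublet score. The 63 and 74 barcodes with the highest scores were removed, a number set beforehand at 0.8% doublets per 1000 barcodes. Barcodes with fewer than 200 genes (1 and 2) or over 25% mitochondrial UMIs (14 and 22) were dropped. CPM is the summed UMIs of a gene over the summed UMIs of a class. Intervals at 95% are exact Poisson (CPM), Clopper-Pearson (shares) and conditional binomial (ratios), and cover counting error only. A count of 0 allows 3 counts. Median log2 ratios use 0.5 added UMIs. The unit of the study is the library, so no test between groups was made. The calculations were tested on simulated data.

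The 36 members, the marker lists and the pathway lists were chosen with earlier results of these data known. Named in full were members past 1.5-fold, Bicd1, Bicd2 and the member with most UMIs of each role, and the 3 genes with most UMIs of each pathway list. Other members are named where they show the range of a role or differ between classes, and these were chosen after their values were seen. Exon lengths and coordinates come from GENCODE M21 (36 of 36 members matched) and promoters from RefSeq. All columns belonged to the 2 libraries. Python 3.11.15, numpy 2.4.6, scipy 1.17.1, pandas 2.3.3 and matplotlib 3.10.9 were used.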

Additional observations from a re-analysis of the deposited data

How the results depend on the processing

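Of 248 values under alternative settings, 215 stayed within their limits and 33 moved. The medians of Ptprc-positive barcodes (both libraries) and of Dcn-positive barcodes (labelled shBicd2) lay near 0 and changed sign under some settings, so they carry no direction. No paired analysis was possible because each group has 1 library, and no library could be left out. Scaled to the median gene, the members' median log2 ratio between libraries was 0.013 in place of 0.16, with 1 member higher and 2 lower in place of 2 and 1. The count of members higher was 4 with no minimum of UMIs, 7 with classes set by marker lists and 8 without EGFP-positive barcodes. The count lower was 0 with hepatocyte barcodes set by Ptprc, Ptprb and Dcn only, 0 with a mean over barcodes and 0 without EGFP-positive barcodes. Among these settings the share over all genes was counted only without EGFP-positive barcodes (27.3% higher and 9.54% lower). The other counts therefore have no background beside them.

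For Ptprc-positive over hepatocyte barcodes the medians of 0.16 and -0.16 were -0.019 and -0.27 scaled to the median gene and 0.48 and 0.29 by marker lists. For Dcn-positive barcodes the median of 0.80 (labelled scramble) was 0.52 at 50 UMIs or more, 0.90 with no minimum and 0.16 scaled, and the median of 0.07 (labelled shBicd2) was -0.070 scaled, 0.35 by marker lists, 0.25 as a mean over barcodes and -0.00045 without the deepest 10% of barcodes. The Bicd1 share of the pair was 11.4% and 13.0% per kb of gene span. For EGFP-positive over EGFP-free barcodes the median of -0.55 (labelled scramble) was -0.12 scaled, -0.35 by marker lists, -0.70 as a mean over barcodes, -0.44 with 2 EGFP UMIs required and -0.70 without the deepest 10% of barcodes. The median of -0.60 (labelled shBicd2) was -0.14 scaled and -0.78 with 2 EGFP UMIs required. Apart from the scaling, which subtracts the median gene by construction, the cause was not tested.

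The Bicd2 ratio in hepatocyte barcodes ranged from 1.06 to 1.45 over its alternatives. At 62 and 75 UMIs, depth limits what can be said of Bicd2.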
